A study of Mus musculus with 6 samples.

Results

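Snrpn is the lead gene of the Prader-Willi domain, a stretch of imprinted genes on mouse chromosome 7. The genes described here are Snrpn, Ndn, Magel2, Mkrn3 and Ube3a, 5 of the 28737 gene spans with at least 3 measured cytosines. They were taken by name, and a cytosine of a CpG entered when it lay within 1 kb of the gene or inside it and had at least 10 reads in each of the 6 libraries. This gave 259 cytosines of 2206320 in all, 121 on the forward and 138 on the reverse strand. Of these, 23 lie in the control region around a Snrpn start, covered from base 60004580 to base 60005229 (GRCm38). The DNA came from male germ cells of mice and was read by RRBS, bisulfite sequencing of a reduced representation of the genome, in which DNA is cut at a restriction site, commonly CCGG for the enzyme MspI, and unmethylated cytosines are then converted so that they read as T. The groups are 3 CSDS libraries, the name standing for chronic social defeat stress, and 3 Control libraries. Strain, age, germ cell stage and the length of the stress are not given in the sources used here. Nothing in the labels says that replicates are separate animals, so p-values measure only the spread between these samples, which may be technical.

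In mammals, imprinted genes are expressed from 1 parental chromosome, and a mark set in the egg or the sperm tells the copies apart. In the Prader-Willi domain the mark is methylation of the Snrpn control region, which is set in the egg and is absent from sperm. The copy inherited from the father is thereby free to express Snrpn, which encodes a protein of the spliceosome, and with it Ndn, Magel2 and Mkrn3. Ndn and Magel2 encode proteins of the MAGE family, and Mkrn3 encodes a makorin ring finger protein known in people as a brake on puberty. Ube3a encodes a ubiquitin ligase that neurons express from the maternal chromosome, and its loss in people causes Angelman syndrome.

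The promoters of 2 of these genes held measured cytosines and are shown because the Snrpn window overlaps the run of control region sites that carries most of its difference, and the Mkrn3 window holds the largest difference of that gene. Each runs from 250 bases before to 50 bases after a start, 5′ to 3′ on the strand of the gene, from RefSeq on GRCm38.p6. Capitals mark every CG and, where the CG stands in CCGG, all of that site. The Snrpn window is chr7:60005150-60005449 and the Mkrn3 window is chr7:62420104-62420403, both on the reverse strand.
Snrpn: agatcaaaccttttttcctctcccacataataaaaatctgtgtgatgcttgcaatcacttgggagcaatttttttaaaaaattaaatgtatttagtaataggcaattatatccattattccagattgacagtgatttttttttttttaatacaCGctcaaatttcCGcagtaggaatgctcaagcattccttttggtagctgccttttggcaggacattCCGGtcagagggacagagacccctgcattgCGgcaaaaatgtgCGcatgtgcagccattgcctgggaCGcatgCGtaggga
Mkrn3: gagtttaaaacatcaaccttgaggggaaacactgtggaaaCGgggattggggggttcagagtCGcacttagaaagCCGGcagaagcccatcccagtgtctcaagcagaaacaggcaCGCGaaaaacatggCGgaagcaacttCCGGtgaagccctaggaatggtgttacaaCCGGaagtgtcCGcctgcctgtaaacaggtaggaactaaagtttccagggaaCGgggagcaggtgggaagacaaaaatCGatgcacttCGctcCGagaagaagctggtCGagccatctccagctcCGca
The Snrpn window holds 7 CG, 5 of them measured on the reverse strand, and 1 CCGG. The Mkrn3 window holds 15 CG and 3 CCGG, with 12 measured cytosines. CCGG was found in 52.8% of 32851 promoter windows of this length. The Snrpn window also holds, on either strand, 1 match to CGCATGCG, the core letters known for the factor NRF1 (1.87% of windows), and 1 match to TGCCGC, those known for the imprint factor ZFP57 (11.6% of windows). Windows at further Snrpn starts, at bases 60450177, 60140225 and 60047978, also hold 1 match each to CGCATGCG, none to TGCCGC and no measured cytosine. The search letters were chosen after the sequences had been seen. Of the other starts, the window of Ndn at chr7:62348027-62348326 has 11 CG and 1 match to CGCATGCG, and the windows of Magel2 and Ube3a have 10 CG and 29 CG. None of these held a measured cytosine, so their genes were read from nearby sites.

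Each library listed between 2420308 and 3156788 cytosines, with a median coverage of 44 to 50 reads. In both groups paternally methylated control regions were high and maternally methylated ones low, the order known of male germ cells. The low ones were not free of methylation reads, and the source of these was not tested. The median of the 3 paternally methylated control regions (H19, Meg3 and Rasgrf1) was 94.2% ± 0.796 in CSDS and 97.2% ± 1.15 in Control libraries (SD, n = 3 each). The median of 16 maternally methylated regions other than Snrpn was 15.6% ± 3.11 in CSDS and 18.7% ± 0.283 in Control libraries (SD, n = 3 each). Starts of the germline genes Dazl, Ddx4, Sycp1, Sycp3, Mael and Tdrd1 stood between 11.7% and 19.7% in CSDS and between 14.9% and 22.8% in Control libraries. The share of mitochondrial CpG reads that show C, at 27 cytosines of a genome that is largely unmethylated, was 8.497%, 4.41% and 4.53% in CSDS libraries 1, 2 and 3, against 8.90%, 8.84% and 10.04% in the Control libraries. CSDS libraries 2 and 3 thus stood below the other 4 libraries in a quantity that is not nuclear methylation. Differences are therefore also given after each library was corrected for this share; its part in each result was not tested otherwise. A methylation level is a share of reads from many cells, so fewer cells with a methylated site and less methylation in every cell cannot be told apart.

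The Snrpn control region was less methylated in all 3 CSDS libraries than in all 3 Control libraries. Its mean over 23 cytosines was 20.8%, 15.2% and 14.8% in CSDS libraries, against 25.7%, 27.1% and 32.6% in Control libraries. The groups did not overlap, and the nearest pair was CSDS library 1 and Control library 1. The group levels were 16.9% ± 3.35 in CSDS and 28.5% ± 3.68 in Control libraries (SD, n = 3 each), a difference of −11.5 points. The exact two-sided permutation p was 0.1, the smallest that 3 against 3 libraries can give, and 0.1 after Benjamini-Hochberg adjustment over the control region and the 5 genes. After the mitochondrial correction the difference was −9.32 points, with 13.5%, 11.3% and 10.8% in CSDS against 18.4%, 19.99% and 25.1% in Control libraries. Coverage summed over the 23 cytosines ran from 1178 to 2003 per library. A read that spans several cytosines counts at each of them.

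**Figure D1:**
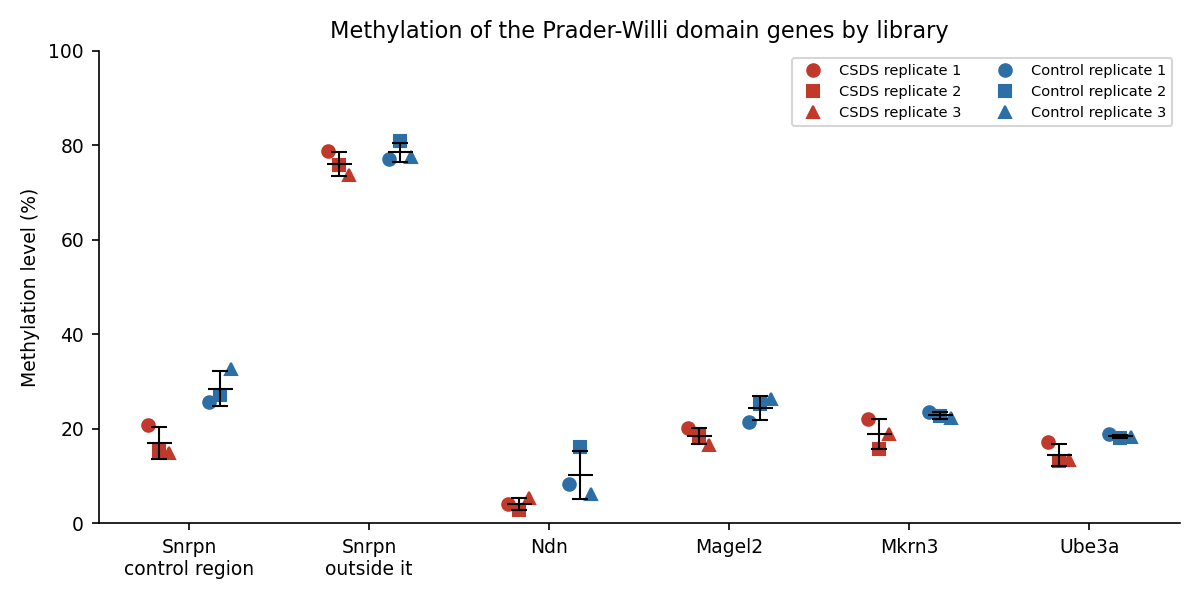
Methylation level (%, mean over cytosines) of the Snrpn control region, the rest of Snrpn and the other genes, with 1 point per library and black bars for mean and SD (n = 3). CSDS points lie left of Control points, and the groups overlap for the rest of Snrpn, where CSDS library 1 stood at 78.8% and Control library 1 at 77.1%.

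Most of this difference came from a run of 10 cytosines on the reverse strand, next to and across the Snrpn start. The run, from base 60005112 to base 60005229, read 10.5%, 5.44% and 5.13% methylated in CSDS libraries, against 16.99%, 32.9% and 26.7% in Control libraries. Control libraries 2 and 3 were highest, and they also had the fewest reads there, 33 to 36 and 36 to 40 per cytosine, where CSDS libraries had 82 to 114 and Control library 1 had 107 to 114. The difference was −18.5 points (exact permutation p = 0.1; −16.6 after the mitochondrial correction). Coverage was nearly the same along the run in each library, so its cytosines may share molecules and are not counted as 10 separate measurements. The other 13 cytosines of the control region stood at 28.7%, 22.7% and 22.3% in CSDS libraries, against 32.3%, 22.6% and 37.2% in Control libraries. Here the groups overlapped, and differed by −6.11 points (exact permutation p = 0.3), which was −2.87 points without Control library 3 and −10.2 points without Control library 2.

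On the forward strand the CpGs of this run were low in the Control libraries too. The forward reads were fewer, 10 to 20 per cytosine, and were listed in 5 libraries, with none in CSDS library 2. Over 9 CpGs they were 15.5% methylated in CSDS library 1, and over 8 CpGs they were 2.50% in CSDS library 3. Over 9 CpGs they were 4.17%, 1.96% and 3.17% in Control libraries 1, 2 and 3. CSDS library 1 was thus the highest on this strand, and the other 4 libraries were close together. Reverse minus forward was −4.10 and 2.92 points in CSDS libraries 1 and 3, against 12.1, 30.9 and 23.7 points in the Control libraries. At the CpG at the start itself, Control library 2 had 0 methylated of 18 forward reads (exact 95% interval 0% to 18.5%) and 13 of 35 reverse reads (37.1%, 21.5% to 55.1%). These intervals cover counting error only, since the reads carry no stated molecular identifiers. In the libraries that list both strands, the lower level of CSDS was therefore seen on 1 strand of these CpGs and not on the other. When the reads of both strands of a CpG were summed and strands listed in some libraries were let in, the control region differed by −8.92 points (exact permutation p = 0.1). In that sum the reverse strand of the run, with more reads, outweighs the forward strand. An average with equal weight for each strand was not computed. When each run of reads counted once, the control region differed by −6.97 points (exact permutation p = 0.2).

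**Figure D2:**
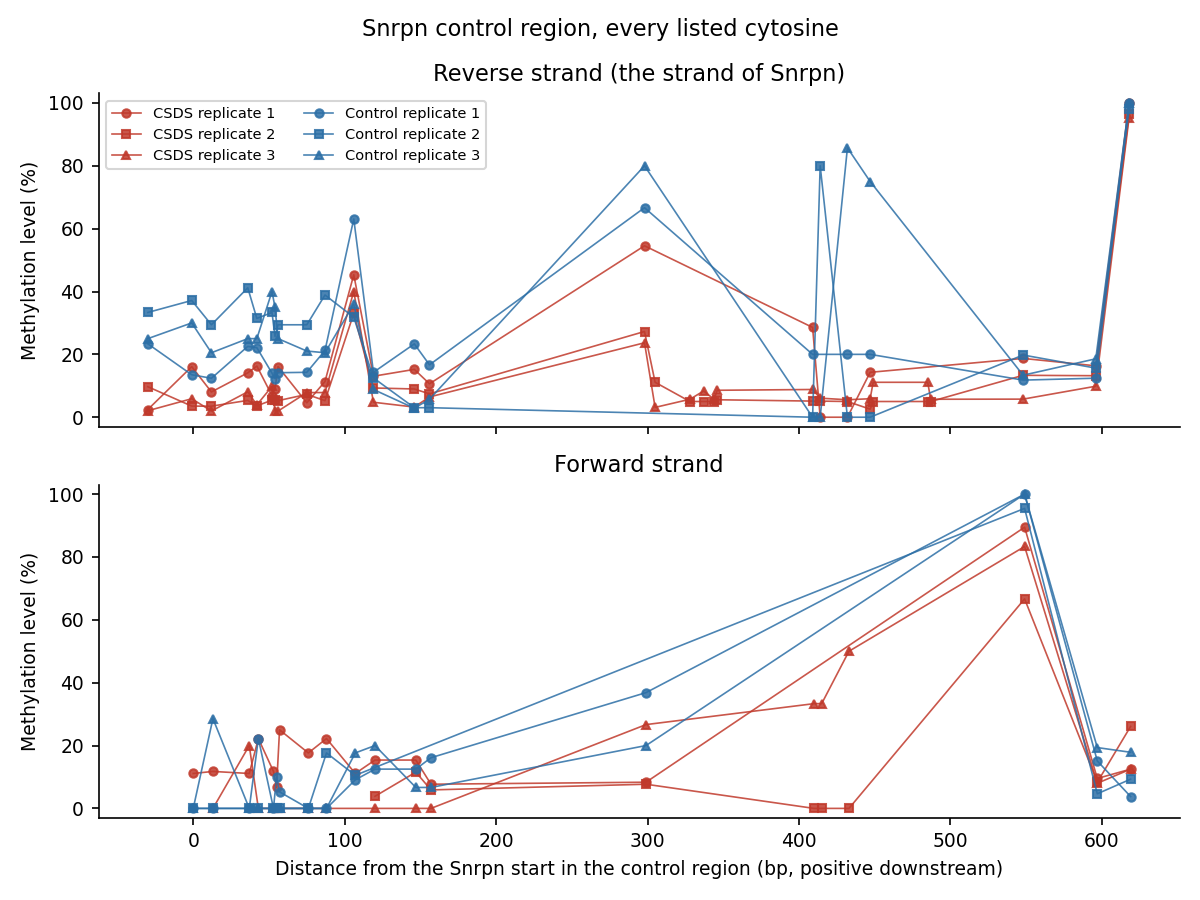
Methylation level (%) of every cytosine listed in the Snrpn control region, by distance from the Snrpn start in bp, with 1 line per library (reverse strand above, forward strand below; CSDS red, Control blue). Near the start all CSDS libraries lie below all Control libraries at 8 of the 10 reverse-strand cytosines of the run, while on the forward strand Control libraries average between 1.96% and 4.17%.

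Single cytosines of the control region spread widely. The highest was base 60004581 on the reverse strand, at 97.3% ± 2.43 in CSDS and 99.3% ± 1.18 in Control libraries. Its partner on the forward strand, base 60004580, was at 17.03% in CSDS and 10.3% in Control libraries. The lowest by the mean of all 6 libraries was base 60005043 on the reverse strand, at 8.17% ± 2.19 in CSDS and 8.47% ± 7.22 in Control libraries (SD, n = 3 each). Of the 5 of largest difference, bases 60004767 (−31.7 points) and 60004752 (−24.1 points) rest on 10 to 72 reads and on Control library 3, which was at 85.7% and 75.0% where Control library 2 was at 0%. The other 3 are in the run at the start. Base 60005229, the CCGG site 30 bases before the start, read 2.44%, 9.71% and 2.06% in CSDS libraries, against 23.4%, 33.3% and 25% in Control libraries. The groups were apart there, by −22.5 points. Bases 60005147 and 60005163 differed by −21.7 and −20.4 points.

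Across the control region 9 of 23 cytosines had every CSDS library below every Control library, 8 of them in the run at the start, against 10.5% of all cytosines, and 0 had the reverse order, against 1.73% of all cytosines. Over all 5 genes 50 of 259 cytosines were ordered CSDS below Control and 6 the other way. Cytosines of 1 run may share molecules, so counts of cytosines are not counts of separate measurements. Counted by runs of reads, over all 5 genes 21 of 100 were below, against 10.8% of 841193 runs over all sites. There 2 were above, against 2% of all runs. Of the 9 runs in the control region, only the run at the start and the single cytosine at base 60004650 had the groups apart. No cytosine was called at an adjusted p under 0.05 and a difference of at least 10 points in the quasi-binomial F test moderated by the method of limma (0% of 2182877 tested). Its unadjusted p was under 0.05 at 236471 cytosines (10.8%), at 43 of 255 tested in the 5 genes and at 12 of 23 in the control region. The lowest Benjamini-Hochberg adjusted p of this test was 0.135 in the 5 genes and 0.138 in the control region. limma on logit values also called 0, with 200618 at an unadjusted p under 0.05.

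Set against the other maternally methylated control regions, Snrpn had the largest difference as deposited. The other 16 regions ran from −7.91 points at Inpp5f to +1.62 at Peg10, with a median of −3.80. Of these 15 of 16 were lower in CSDS libraries, as were 86% of all gene spans with reads summed. After the mitochondrial correction they ran from −4.99 points at Inpp5f to +5.17 at Peg10. Peg3, Kcnq1ot1, Impact and Gnas1A were then also higher in CSDS libraries, and the remaining regions were lower. Nearest to Snrpn as deposited came Inpp5f, Nnat (−6.55 points) and Mcts2 (−5.06 points). The level of the Snrpn control region minus the median of the others was 1.65, 1.22 and 1.24 points in CSDS libraries, against 6.89, 8.06 and 14.2 points in Control libraries. By these values CSDS libraries had Snrpn near its peers and Control libraries had it above them, which did not hold in every setting below. This measure differed by −8.34 points (exact permutation p = 0.1). With the mitochondrial correction it differed by −9.27 points. With the reads of both strands of a CpG summed, where all 6 libraries list them, it was −8.53 points. The Snrpn control region then still rests mostly on the reverse strand, with 3 forward and 20 reverse cytosines. With strands listed in only some libraries added to these sums, the difference was −5.48 points. With every cytosine listed in any library the difference was −2.58 points. Control libraries then had Snrpn at 0.822, −1.04 and 2.70 points from its peers, and CSDS libraries at −1.06, −2.40 and −1.80. With each run of reads counted once the difference was −1.50 points (exact permutation p = 0.7). With that last weighting the groups overlapped, and Control libraries stood at 4.68, −3.57 and 6.27 points.

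**Figure D3:**
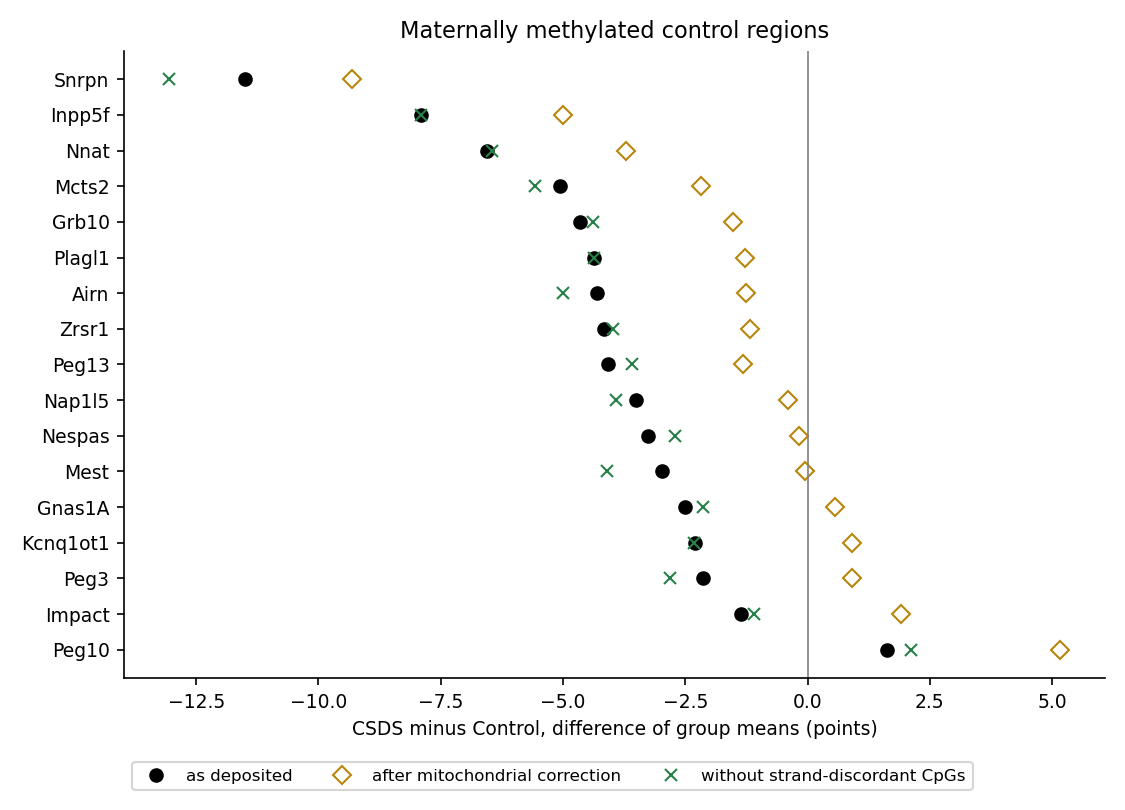
CSDS minus Control difference of group means in percentage points for 17 maternally methylated control regions, as deposited (black), after the mitochondrial correction (open) and without CpGs whose strands differ by at least 40 points (green). Snrpn is farthest to the left in each, at −11.5, −9.32 and −13.1 points.

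The rest of Snrpn was highly methylated, and its groups overlapped over the sites listed in all libraries. Over 50 cytosines outside the control region the level was 78.8%, 75.8% and 73.6% in CSDS libraries, against 77.1%, 80.8% and 77.5% in Control libraries. CSDS libraries differed by −2.40 points (exact permutation p = 0.4), or by −1.18 points without CSDS library 3, −1.21 without Control library 2 and −3.74 without CSDS library 1. The groups were apart with every cytosine listed in any library (−8.28 points, where the control region had −7.79) and with each run of reads counted once (−3.40 points). Of the 12 clusters of sites there, the one from base 60163562 to base 60163679 averaged 92.8% in CSDS and 91.2% in Control libraries. The cluster from 60293264 to 60293305 was the lowest, at 36.3%, 17.2% and 32.7% in CSDS libraries, against 40.8%, 48.4% and 44.5% in Control libraries. Its groups were apart, by −15.8 points over 3 cytosines. Of these, 2 are the strands of a CpG whose strands disagree, at 15.2% forward and 78.1% reverse over the 6 libraries. The cytosine left, base 60293305, read 12.6% in CSDS and 20.8% in Control libraries, with overlapping groups. The cluster from 60317084 to 60317151 went the other way, with 88.4%, 86.7% and 91.6% in CSDS against 68.6%, 85.8% and 85.7% in Control libraries. There Control library 1 made most of the difference of +8.85 points. The single cytosines farthest apart were base 60022973 (−32.2 points), base 60293265 (−27.5 points) and base 60415510 (−17.1 points, where CSDS library 3 alone was low at 24.1%). Base 60293265 is the high strand of the CpG whose strands disagree. Levels over all 73 cytosines of Snrpn were 60.5%, 56.7% and 55.1% in CSDS, against 60.9%, 63.9% and 63.4% in Control libraries, and differed by −5.26 points (exact permutation p = 0.1).

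Ndn had the lowest methylation of the 5 genes. Its 8 cytosines, all on the reverse strand between bases 62348545 and 62348639 inside the gene, form 1 run of reads. They averaged 4.06%, 2.71% and 5.39% in CSDS libraries, against 8.35%, 16.0% and 6.25% in Control libraries. The groups did not overlap, but Control library 2 stood well above the rest and the run was shallow. It had 11 to 52 reads per cytosine, and 95 to 393 per library when coverage was summed over its 8 cytosines. The difference was −6.15 points (exact permutation p = 0.1), −3.25 points without Control library 2 and −2.93 points after the mitochondrial correction (exact permutation p = 0.6). Bases 62348555, 62348639 and 62348601 were farthest apart, by −11.8, −8.47 and −7.40 points.

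Magel2, a gene without introns in mammals, was covered by 71 cytosines. Its level was 20.05%, 18.5% and 16.6% in CSDS libraries, against 21.5%, 25.3% and 26.2% in Control libraries. All CSDS libraries were below all Control libraries, by −5.96 points (exact permutation p = 0.1), and by −3.29 points after the mitochondrial correction, where the groups overlapped (exact permutation p = 0.2). In 20 of 71 cytosines the groups were apart with CSDS lower, against 10.5% of all cytosines, and in 1 with CSDS higher, against 1.73% of all. The largest differences were on the forward strand at bases 62378026 (−38.8 points), 62378050 (−34.9 points) and 62377951 (−32.5 points). The run of reads that holds the first 2 of these covers 5 CpGs, and read 16.2%, 12.3% and 6.10% in CSDS libraries, against 41.4%, 39.8% and 40% in Control libraries. The 3 Control libraries lay close together there, and the difference was −28.9 points (exact permutation p = 0.1). On the reverse strand the same 5 CpGs read 5.62%, 15.8% and 5.46% in CSDS libraries, against 7.58%, 14.3% and 23.8% in Control libraries. The groups overlapped on that strand, with −6.30 points between their means (exact permutation p = 0.3). This run was picked as the one of largest difference outside the control region, among runs of at least 3 cytosines. Such a choice favours a smaller difference on the opposite strand. The contrast of its strands and its p-value are therefore a description and no test.

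Mkrn3 was covered by 42 cytosines around its start. Its level was 22.1%, 15.8% and 18.9% in CSDS libraries, against 23.6%, 22.6% and 22.2% in Control libraries. The groups were apart by a narrow margin between CSDS library 1 and Control library 3, with a difference of −3.89 points (exact permutation p = 0.1). The difference was −0.998 points after the mitochondrial correction (exact permutation p = 0.5) and −2.33 points without CSDS library 2. Of its largest differences, 2 fell on the high strand of CpGs whose strands disagree. Base 62420231, in a CCGG of the promoter printed above, read 75.0%, 26.9% and 55.3% in CSDS libraries, against 93.8%, 91.3% and 80% in Control libraries on the reverse strand. Its partner on the forward strand was at 9.42% in CSDS and 6.52% in Control libraries. Base 62419845 on the forward strand read 56.5%, 63.0% and 61.9% in CSDS libraries, against 94.4%, 93.9% and 92.3% in Control libraries. These groups were far apart, by −33.1 points on 1 strand, and on the opposite strand all 6 libraries were below 15%. Base 62419215 differed by −11.5 points. Without CpGs whose strands disagree, Mkrn3 stood at 11.8%, 4.48% and 7.498% in CSDS, against 11.6%, 10.4% and 10.4% in Control libraries, with overlapping groups (exact permutation p = 0.4).

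Ube3a, the maternally expressed gene of the domain, was read near its start, inside the gene, and further into its body. Over all 65 cytosines it stood at 17.2%, 13.1% and 13.3% in CSDS libraries, against 18.8%, 18.1% and 18.3% in Control libraries. The groups were apart by −3.85 points (exact permutation p = 0.1), and by −0.783 points after the mitochondrial correction, where they overlapped (exact permutation p = 0.3). The 61 cytosines near the start, from base 59229157 to base 59229535, averaged 9.23% ± 2.54 in CSDS and 13.2% ± 0.351 in Control libraries. The 4 cytosines further in, from 59250549 to 59250665, averaged 95.1% ± 1.18 in CSDS and 96.4% ± 1.15 in Control libraries (SD, n = 3 each). Bases 59229301, 59229372 and 59229351 were farthest apart, by −28.9, −16.2 and −13.9 points. The first of these is again the high strand of a CpG whose strands disagree, at 63.2%, 37.2% and 45.0% in CSDS libraries, against 63.6%, 80% and 88.5% in Control libraries.

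The 2 strands of a CpG differed by at least 40 points, averaged over the 6 libraries, in 16 of the 90 CpGs that both strands covered in these genes. These were 4 of 33 in Magel2, 6 of 21 in Mkrn3, 3 of 14 in Snrpn and 3 of 22 in Ube3a, and 80010 of 903591 over all genes and intergenic DNA (8.85%). Where the sequence is known, within promoter windows, strands differed this much at 10446 of 19889 CpGs in CCGG (52.5%) and at 0 of 92495 other CpGs. The higher strand of the 16 CpGs of these genes read 90.3%, 82.9% and 86.1% in CSDS libraries, against 95.1%, 96.2% and 96.4% in Control libraries. CSDS libraries were lower there by −9.47 points (exact permutation p = 0.1), against −4.84 points over the whole table. The lower strand overlapped between the groups, and differed by −1.40 points (exact permutation p = 0.4). What sets the strands apart was not tested.

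**Figure D4:**
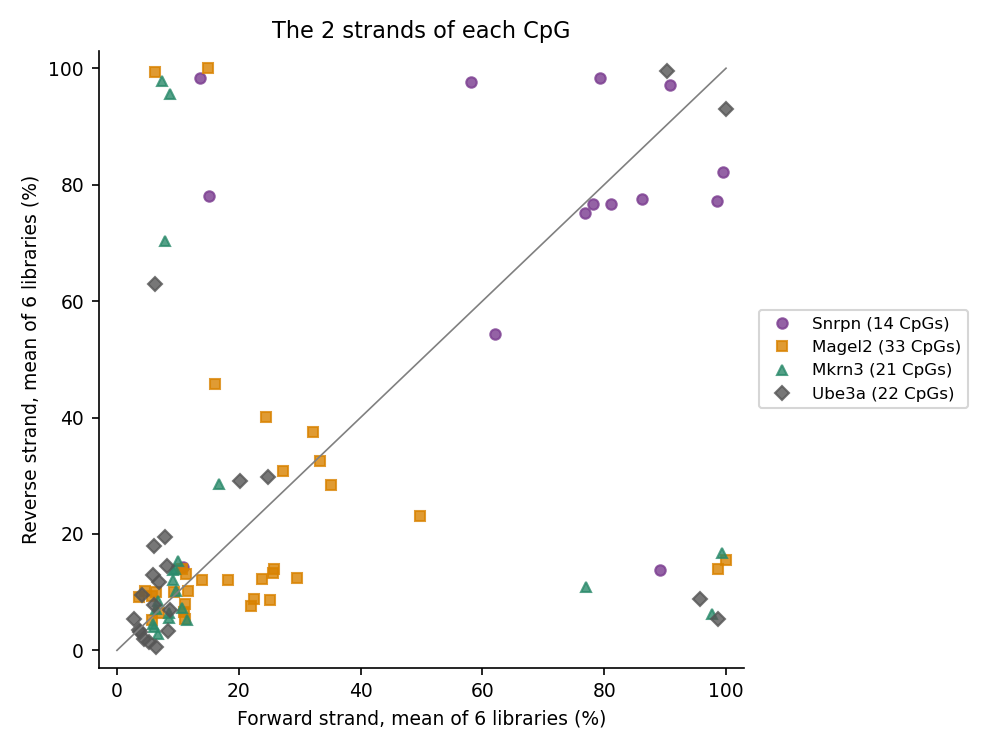
Mean methylation level (%) over 6 libraries of the forward (horizontal) and reverse (vertical) strand of the 90 CpGs covered on both strands in Snrpn, Magel2, Mkrn3 and Ube3a, with the line of equal levels. The 16 CpGs at the upper left and lower right differ by at least 40 points between strands.

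Whole genes were also compared with reads summed over each gene and 1 kb on either side. Snrpn stood at 53.4%, 46.6% and 42.9% in CSDS libraries, against 54.9%, 62.5% and 59.9% in Control libraries, a difference of −11.4 points. In the same sums the control region differed by −11.0 points and the rest of Snrpn by −0.744 points. The value for the whole gene is larger than either, so it also carries how reads were divided between these parts in each library. The tests of Snrpn below use these sums. By the mean over cytosines Snrpn differed by −5.26 points. None of the 5 genes was called by the quasi-binomial F test moderated by the method of limma, whose Benjamini-Hochberg adjusted p was 0.128 for Snrpn, 0.132 for Magel2, 0.179 for Ube3a, 0.206 for Ndn and 0.282 for Mkrn3. That test called 0 of 28737 gene spans (0%), where 8834 had an unadjusted p under 0.05, and limma on logit values called 0, with 7394. Without CSDS library 1 the same test called Snrpn (−14.3 points, adjusted p = 0.00598) and 1524 gene spans in all. The CSDS group is then the pair of libraries with the low mitochondrial share. In these sums 2 of the 5 genes, Snrpn and Ndn, had every CSDS library below every Control library, against 32.5% of all gene spans, and none was above, against 0.797% of all. All 5 were lower in CSDS, as were 86% of all gene spans, whose median difference was −3.33 points. By the mean over cytosines, 5 of 5 had the groups apart with CSDS lower, against 31% of all gene spans, whose median difference was −2.66 points. After the mitochondrial correction the groups were apart for Snrpn only, and overlapped for Ndn, Magel2, Mkrn3 and Ube3a. The share of all gene spans apart after that correction was not computed.

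Along the domain, from Ube3a to Mkrn3, 70 tiles of 500 bp held at least 3 cytosines. Of them 8 were under 20% in both groups and 22 over 80% in both. All 8 low tiles lay in Ube3a, Ndn, Magel2 or Mkrn3. CSDS was lower in 51 of 70 tiles, against 73.7% of all tiles, with the groups apart in 12 (16.3% of all tiles), and CSDS was above in 3 with the groups apart (1.82% of all tiles). The share of tiles lower in CSDS and the share apart and lower were close to those of all tiles. The tile at the Snrpn start, from base 60005001, had the largest difference, at 13.2%, 8.05% and 7.60% in CSDS libraries, against 19.3%, 25.9% and 22.5% in Control libraries. The groups were apart by −12.99 points. The next were the tiles from 60293001 in Snrpn (−12.5 points), from 60951501 between the genes (−11.2 points, groups overlapping), from 60317001 in Snrpn (+9.44 points) and from 62378001 in Magel2 (−7.95 points). The tile from 60293001 holds the Snrpn cluster with a CpG whose strands disagree. The quasi-binomial F test moderated by the method of limma called 0 of 162809 tiles (0%), with 25447 at an unadjusted p under 0.05 and an adjusted p of 0.174 at the Snrpn start, and limma on logit values also called 0, with 14904. Without CSDS library 1 it called 2406 tiles, and of the 23 tiles within these genes only the one at the Snrpn start (−14.8 points, adjusted p = 4.7e-05).

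**Figure D5:**
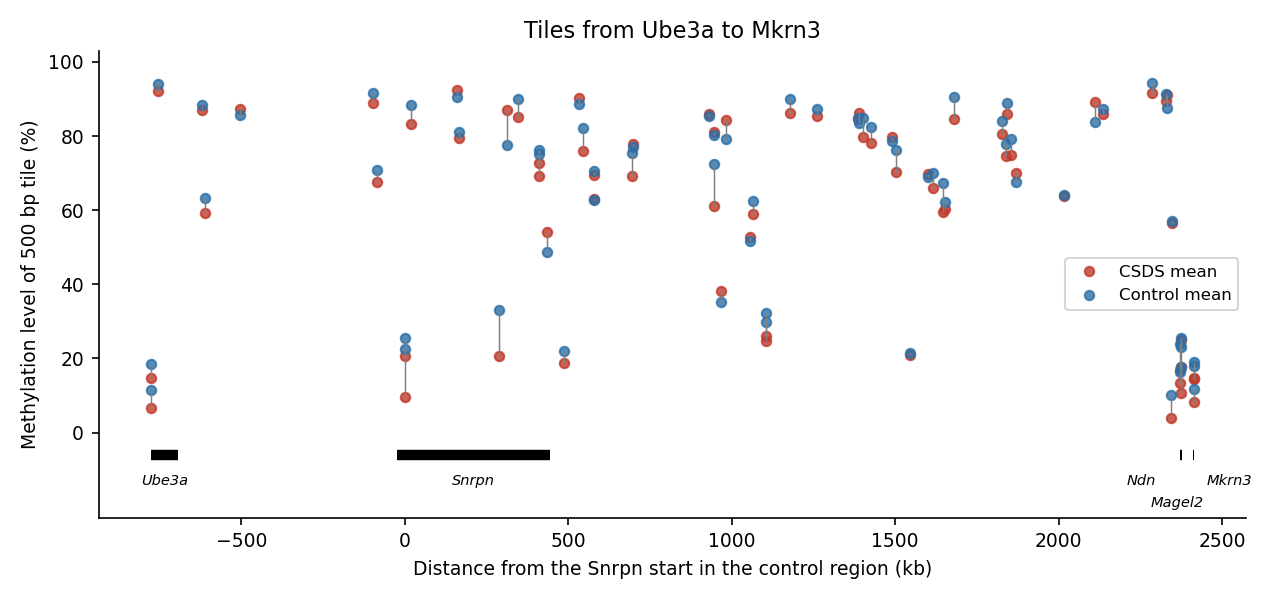
Group mean methylation level (%) of 70 tiles of 500 bp by distance from the Snrpn start in kb, with CSDS in red, Control in blue, a grey line joining the pair and black bars for the genes. The tile at the Snrpn start reads 9.60% in CSDS and 22.6% in Control libraries, and 22 tiles are above 80% in both groups.

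Neighbouring genes of the chromosome 7 region were counted from a list of 18, of which 17 were measured and Ipw was not. With reads summed per gene, 17 of 17 were lower in CSDS libraries by a median of −3.81 points, 7 of them with the groups apart, and 0 were called by the quasi-binomial F test moderated by the method of limma (10 at an unadjusted p under 0.05). Of all gene spans 86% were lower, 32.5% had the groups apart with CSDS lower, and the median was −3.33 points. Snurf, which shares its transcript and all its 23 measured cytosines with the Snrpn control region, stood at 12.7% ± 4.30 in CSDS and 23.7% ± 3.19 in Control libraries. Snhg14, the long host transcript that runs over Snrpn, stood at 59.9% ± 3.77 in CSDS and 67.6% ± 2.52 in Control libraries. Neither is independent of Snrpn. Outside the imprinted genes, Chrna7, a nicotinic acetylcholine receptor subunit, stood at 12.2% ± 3.90 in CSDS and 20.1% ± 0.203 in Control libraries (SD, n = 3 each). Herc2, a ubiquitin ligase, differed by −6.98 points, the magnesium transporter Nipa2 by −6.96 and the deubiquitinase Otud7a by −6.93. Without CSDS library 1, Snurf was the 1 neighbour called.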

How the data were processed

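Genomic DNA of male germ cells was made into RRBS libraries with the Zymo-Seq kit, per the labels. The submitters' processing notes name Trim Galore 0.5.0, Bismark 0.20.0 and GRCm38. Per the file headers, the deposited tables hold the coverage of each cytosine, a count of reads, and which percent of these show C or T. Deposited percents times counts came out whole to within 1e-06 at every listed cytosine, and were used as methylated counts. Duplicate handling and conversion rate are not given in the sources used here.

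Cytosines with at least 10 reads in all 6 libraries and outside the top 0.1% of coverage were used, strands apart. Levels are means over cytosines, tested by exact two-sided permutation (smallest p 0.1). Counts per cytosine, 500 bp tile and gene span were fitted by a quasi-binomial model with dispersions moderated as in limma 3.58.1 (a call needed an adjusted p under 0.05 and at least 10 points), with limma on logit values (pseudocount 1 read) as an alternative. On simulated tiles of these depths, the script was checked to recover known changes. Those changes were larger than the tile differences described here and lay in well-covered tiles of intermediate level. Recovery was required only at the smallest of the simulated spreads between libraries. Recovery of smaller changes at low levels was not checked. The mitochondrial correction divides the unmethylated share by 1 minus the mitochondrial share and can give levels below 0. Runs of reads join cytosines of 1 strand at most 60 bp apart with coverage within 1.5-fold in every library.

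Members, lists and imprint regions were chosen with earlier results of these data known, and region bounds are approximate; those of H19 were narrowed after its values were seen. Strand comparisons, runs of reads and their alternatives were chosen after seeing the data. Named cytosines are those of largest difference per gene (5 in the control region, 3 elsewhere), named tiles the 5 of largest difference, and named neighbours at most 6 with groups apart. The clusters of Snrpn sites, the run in Magel2 and partner strands were named after their values were seen. Gene names are from RefSeq tables of GRCm38.p6, which give no exons, so exons, introns and untranslated regions were not separated. Software was Python 3.11.15, SciPy 1.17.1 and R 4.3.3.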

Additional observations from a re-analysis of the deposited data

Results flagged for a closer look

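The main group comparisons do not use the forward strand of the CpGs at the Snrpn start, because CSDS replicate 2 lists no reads there. Settings that let in cytosines listed in only some libraries do use it. This strand read 15.5% methylated in CSDS replicate 1. That is above each Control library on the same strand (4.17%, 1.96% and 3.17%), while CSDS replicate 3 stood at 2.50%. The value rests on 15 to 18 reads per cytosine in CSDS replicate 1.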

How the results depend on the processing

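CSDS was lower under each of the 15 to 17 other settings tried for the control region, its difference from the other maternal regions, the 5 genes and Snrpn outside the control region. Some settings left a value as it was and are no separate check. For the control region these were the replicate block, no upper limit on coverage and the middle kilobase, each at −11.5 points. For Ndn the replicate block, no upper limit, summed strands, removal of CpGs whose strands disagree and runs counted once each gave −6.15 points. The control region ran from −13.4 points without CSDS replicate 1 to −6.97 with runs of reads counted once; without single replicates it ran from −13.4 to −9.42. A coverage minimum of 20 gave −10.4 points, summed reads −11.0 and every cytosine listed in any library −7.79. For the genes, every cytosine listed in any library moved Mkrn3 to −8.26 and Snrpn outside the control region to −8.28 points, and a coverage minimum of 20 left Ndn without a value. Summed reads gave −0.744 points for Snrpn outside the control region. Calls changed in few settings: 1 cytosine with a coverage minimum of 20, 492 cytosines with no upper limit on coverage (0 in these genes), and, without CSDS replicate 1, 2406 tiles (1 in these genes) and 1524 gene spans (1 of the 5 genes and 1 neighbour), where leaving out any other replicate gave 0 in each. The cause was not tested. Same-numbered libraries of the 2 groups did not deviate together (correlations −0.0509, −0.0591 and −0.00248), so the numbers were not taken to pair them; with the replicate block the control region stayed at −11.5 points (exact sign-flip p = 0.25, the smallest possible) and 0 cytosines, tiles or gene spans were called. Depth limits the forward strand at the Snrpn start, with 10 to 20 reads, and the single run at Ndn.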

Other observations

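Of 29712 gene ends with measured cytosines, 5 were nearest to the Snrpn control region in level over the 6 libraries, by the root mean square difference. They belong to 4 genes. The upper end of Pyroxd2 on chromosome 19 was nearest, 1.49 points away, with 22.1%, 15% and 17.7% in CSDS libraries, against 24.2%, 26.4% and 32.2% in Control libraries. The lower end of Slc39a4 was 1.81 points away, the lower end of Kank3 1.93 points, and both ends of Gm36116, which share their 32 cytosines, 2.11 points. These ends were picked for their likeness over the same libraries, so their group differences are a description and no test.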
